A study of Mus musculus with 6 samples.

Results

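The genes described here are the families of splicing regulators and related RNA-binding proteins that are recognised by their symbols: the SR protein genes (Srsf), the heterogeneous nuclear ribonucleoprotein genes (Hnrnp), the Celf, Mbnl and Rbfox genes, and the RNA-binding motif genes (Rbm), together with Cirbp. By this naming rule 83 of the 18005 listed symbols were members. Of these, 75 had at least 10 counts over the 6 libraries, and 72 passed the expression filter of the test. The symbol alone made a gene a member, so the families hold proteins of differing function. Rbm3 was grouped with Cirbp as a cold-inducible pair and is not counted among the RBM genes below, while Rbm3-ps is. Gene-level counts measure how much RNA of each regulator was present, and not how any transcript was spliced.

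The samples were hearts of 3 young and 3 old mice, all WT and without treatment, with polyadenylated RNA sequenced from total RNA. Both groups share genotype and treatment. The labels give no age in months, no strain or sex, and no part of the heart. The titles number the mice within each group, and nothing else shows that the hearts were processed separately, so p-values measure the spread between these 6 libraries. In whole tissue, fewer cells of a type and less RNA per cell cannot be told apart.

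As background, SR proteins bind exons through RNA recognition motifs and recruit the spliceosome through arginine- and serine-rich domains, whereas many hnRNP proteins coat nascent RNA and keep splice sites from being used. Several SR and hnRNP genes carry conserved "poison" exons whose inclusion sends their own transcript to nonsense-mediated decay, so their RNA levels are under their own feedback. In heart muscle, CELF proteins favour fetal and MBNL proteins adult exon choice, RBFOX proteins bind GCAUG sites beside muscle exons, and RBM20 keeps exons of titin and other sarcomere and calcium-handling transcripts out of the mature RNA. RBM3 and CIRBP are small glycine-rich proteins that are induced by mild cold and fall in heat.

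The promoters of the members with the steadiest change in RNA are printed first. Srsf3, Srsf7, Hnrnpa2b1, Hnrnpab and Rbm8a were called higher in old hearts in the main test and in each of the 20 alternative fits, and RefSeq promoter windows were found for all of them but Rbm8a. Each window runs 5′ to 3′ from 250 bases before to 50 bases after the annotated start (RefSeq, GRCm38.p6). Capitals mark matches on either strand to the CCAAT box (CCAAT, or ATTGG on the other strand), the GC box (GGGCGG, or CCGCCC), the TATA box (TATAAA), the E-box (CACGTG), the cyclic AMP response element (TGACGTCA) and a heat shock element of 3 alternating units (GAA, TTC and GAA, each 2 bases apart).
Srsf3, chr17:29032410-29032709, plus strand: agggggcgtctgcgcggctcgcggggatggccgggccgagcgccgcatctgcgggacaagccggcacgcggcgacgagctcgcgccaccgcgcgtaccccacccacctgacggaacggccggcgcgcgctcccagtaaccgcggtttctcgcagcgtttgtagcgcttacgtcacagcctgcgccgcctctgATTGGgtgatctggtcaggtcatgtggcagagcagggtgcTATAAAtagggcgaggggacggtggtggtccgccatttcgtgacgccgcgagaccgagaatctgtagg
Srsf7, chr17:80207256-80207555, minus strand: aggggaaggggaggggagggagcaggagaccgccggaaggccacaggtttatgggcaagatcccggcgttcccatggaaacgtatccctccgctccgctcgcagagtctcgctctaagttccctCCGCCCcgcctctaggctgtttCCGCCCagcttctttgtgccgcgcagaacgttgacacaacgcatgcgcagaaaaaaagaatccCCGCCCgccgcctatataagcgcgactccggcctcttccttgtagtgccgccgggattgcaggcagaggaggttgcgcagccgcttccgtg
Hnrnpa2b1, chr6:51469845-51470144, minus strand: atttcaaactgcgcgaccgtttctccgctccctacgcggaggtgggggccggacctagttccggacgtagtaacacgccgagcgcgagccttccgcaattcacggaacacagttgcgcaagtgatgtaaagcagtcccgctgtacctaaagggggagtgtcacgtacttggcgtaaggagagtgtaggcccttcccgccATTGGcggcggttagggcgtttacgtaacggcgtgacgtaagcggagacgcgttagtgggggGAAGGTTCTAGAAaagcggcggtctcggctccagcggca
Hnrnpab, chr11:51606832-51607131, minus strand: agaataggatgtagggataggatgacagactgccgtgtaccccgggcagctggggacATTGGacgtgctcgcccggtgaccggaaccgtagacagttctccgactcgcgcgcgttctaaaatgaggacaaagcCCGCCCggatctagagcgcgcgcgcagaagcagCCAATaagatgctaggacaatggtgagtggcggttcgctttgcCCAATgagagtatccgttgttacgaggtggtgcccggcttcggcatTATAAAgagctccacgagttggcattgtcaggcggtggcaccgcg

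These windows had no common layout. The Srsf3 window held 1 CCAAT box, at base 193, and a TATA box at base 233, and that of Srsf7 held 3 GC boxes and no CCAAT box. The Hnrnpab window held 3 CCAAT boxes, a GC box and a TATA box. The Hnrnpa2b1 window held a CCAAT box at base 200 and the heat shock element at base 262, within the 50 bases after the start. No motif overlapped another in these 4 windows.

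Windows were found for 70 of the 83 members, for 13 of the 15 called higher and for 10266 of all genes tested. Among the windows of called-higher members, 53.8% (7 of 13) held a CCAAT box, beside 48.9% of those of uncalled members, 38.4% of all genes tested and 37.9% of all 27025 windows. Their median GC content was 62.7%, beside 61% for all genes tested. GC boxes were in 61.5% of the called-higher windows and in 61.7%, 64.3% and 35.9% of these other sets. TATA boxes stood in 15.4% of the called-higher windows, with 12.8%, 7.17% and 14.2% in the other sets, and E-boxes in 15.4%, with 10.6%, 10.2% and 7.24%. The cyclic AMP response element was in none of the 13 windows and in 3.16% of all genes tested, and the heat shock element was in 1 of 13 (Hnrnpa2b1), with 0.390% of all genes tested and 0.529% of all windows. With 13 windows these shares are a description, and a match does not show that a factor binds.

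Of the 72 tested members, 15 were called higher in old hearts, 2 lower, and 55 were not called, in an edgeR quasi-likelihood test with Benjamini-Hochberg adjustment over all 12893 genes tested and a threshold of 0.05. The rises were small, from 0.26 to 0.58 on the log2 scale, and the falls were -0.25 and -0.32; no member changed by 1 or more. The called share of the members, 23.6%, was near that of all genes tested, of which 22% were called. By direction the shares were apart: 20.8% of the tested members were called higher beside 11.4% of all genes, and 2.78% were called lower beside 10.6%. The log2 fold change, old over young, was positive for 54 of 72, with a median of 0.11 and a range of -0.51 to 0.58, beside a median of -0.01 over all genes tested.

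Groups that did not overlap were seen in 31 of the 72 (43.1%), near the 39.9% of all genes tested. In 26 members all old hearts lay above all young hearts, and in 5 all lay below. Over all genes tested these numbers were 2530 and 2617. The direction of the member calls leaned on the scaling. With the library size alone 7 were called higher and 5 lower, so that 58.3% of the calls were higher in place of 88.2%, and the median log2 fold change of the members was 0.03. Upper-quartile scaling gave 9 higher and 2 lower (81.8%). On log2 of the deposited FPKM + 1, where 67 members were tested, 7 were higher and 3 lower (70% of the calls). Of all 12893 genes, 1032 were called higher and 2122 lower with the library size alone, and 1206 and 1796 with upper-quartile scaling. FPKM + 1 gave 907 and 1678 of 10964 genes. The excess of higher calls among the members was thus smaller under each of these scalings than in the main test. Their share of lower calls stayed below that of all genes. The 8 members whose rise was called neither with the library size alone nor on FPKM + 1 were Srsf4, Hnrnpa3, Hnrnpd, Hnrnpf, Hnrnpl, Rbm3, Rbm39 and Rbm42. Over all genes those scalings moved the higher share of calls from 51.7% to 32.7%, 40.2% and 35.1%. The number called higher was 8 without young 1, without young 2 or without young 3, 9 without old 1, 15 without old 2 and 14 without old 3. An unadjusted edgeR p under 0.05 was seen in 28 of the 72 members and in 4642 of all 12893 genes, so this count was near the background.

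**Figure D1:**
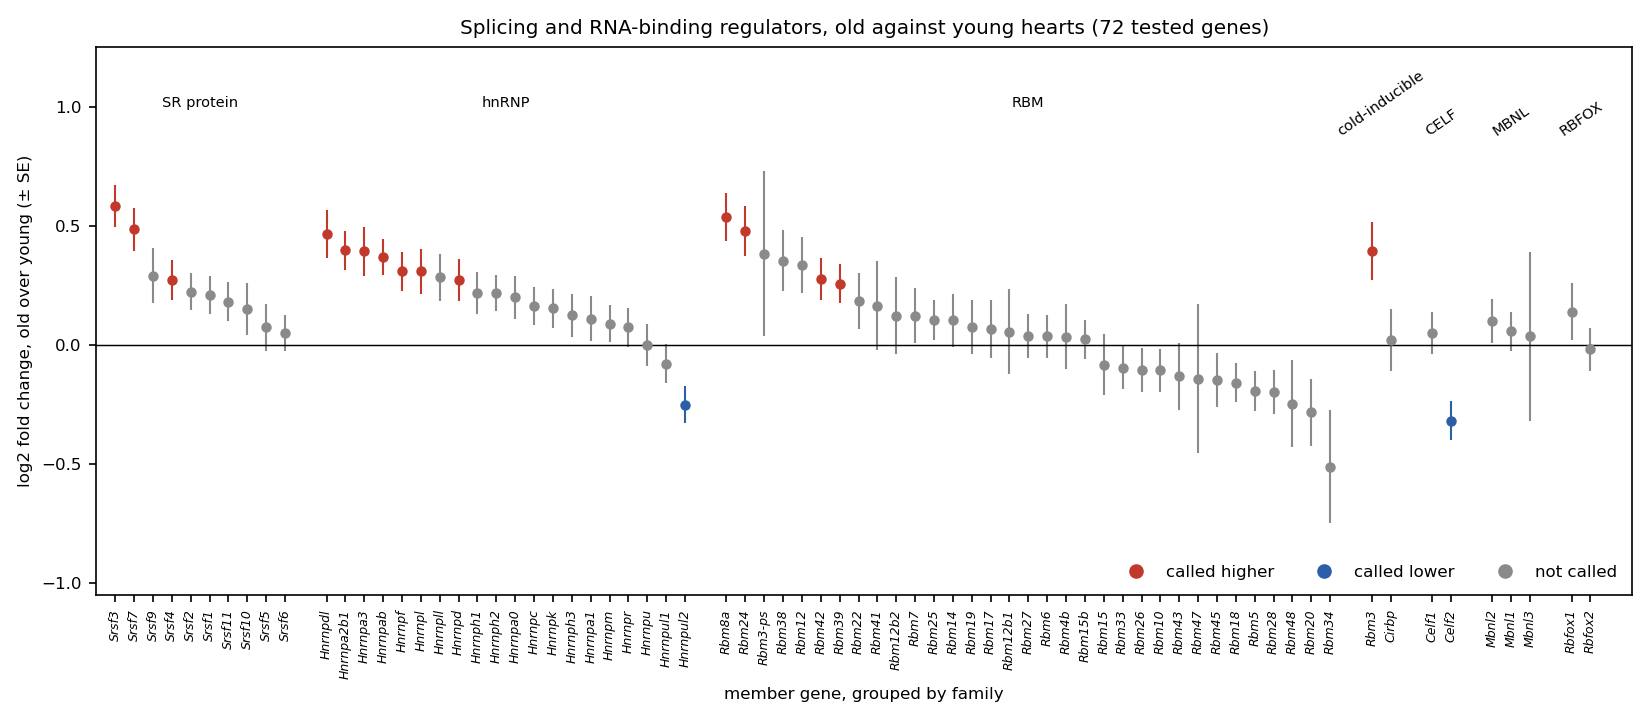
Log2 fold change of old over young (vertical axis, ± SE from edgeR) for each of the 72 tested members, grouped by family along the horizontal axis; red points were called higher, blue lower and grey not called. The 10 SR protein points all lie above 0, and the 33 RBM points spread to both sides from 0.54 to -0.51.

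The members made up 0.471 ± 0.0103% (SD, n = 3) of the counts in young against 0.498 ± 0.0086% (SD, n = 3) in old hearts. The 3 young libraries stood at 0.480%, 0.460% and 0.473% and the old at 0.507%, 0.491% and 0.495%, so the groups did not overlap. An exact 2-sided permutation test gave p = 0.1, which is the smallest that 3 against 3 libraries allow. The SR protein genes went from 0.0650 ± 0.00086% to 0.0724 ± 0.0031% (SD, n = 3 each, exact permutation p = 0.1). The hnRNP genes went from 0.207 ± 0.0060% to 0.224 ± 0.010% (SD, n = 3 each, exact permutation p = 0.2), and old 2 at 0.213% stood just below young 1 at 0.214%. After TMM scaling the hnRNP groups did not overlap, with sums of 2056, 2022 and 1975 CPM in young and 2382, 2229 and 2309 CPM in old hearts (exact permutation p = 0.1). The RBM genes held 0.129% and 0.132% of the counts (n = 3 each, exact permutation p = 0.6), with overlapping groups. Summed per length the RBM genes had 364, 372 and 379 FPKM in young and 396, 430.1 and 382 FPKM in old hearts, without overlap (exact permutation p = 0.1). The RBM means were 372 FPKM in young and 403 FPKM in old hearts. Within them Rbm38 held 91.5 and 110.3 FPKM and Rbm24 49.4 and 64.9 FPKM, while other RBM genes went either way. The hnRNP genes had 567, 543 and 533 FPKM against 623, 568 and 607 FPKM, also without overlap (exact permutation p = 0.1). In the same unit, the members stood at 1244 ± 20.9 FPKM in young against 1353 ± 27.7 FPKM in old hearts (SD, n = 3 each, exact permutation p = 0.1).

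Signs were uniform among the SR protein genes, as they were among the 3 tested MBNL genes and the cold-inducible pair. Each of the 10 log2 fold changes of SR protein genes was above 0, with a median of 0.21. Of the 10 genes 3 were called higher (30%) and none lower, beside 11.4% and 10.6% of all genes tested. The calls numbered 2 without young 1 or without old 1 and 4 without old 3. The median stayed above 0 under every scaling tried, at 0.14 with the library size alone and 0.13 on FPKM + 1. Srsf3, the smallest SR protein and one that also couples splicing to mRNA export, had 59.7, 63.3 and 56.0 CPM in the young hearts and 89.7, 95.7 and 82.6 CPM in the old hearts. All old hearts lay above all young ones, and it was the largest rise among the members (log2 fold change 0.58 ± 0.09 (SE), edgeR adjusted p = 0.000800). Srsf7, its closest relative and a zinc-knuckle SR protein with export adaptor activity, had 44.0, 44.9 and 48.3 CPM in the young hearts and 68.3, 57.3 and 66.4 CPM in the old hearts. The groups did not overlap, and Srsf7 rose as well (log2 fold change 0.48 ± 0.09 (SE), edgeR adjusted p = 0.00318). Per length, Srsf3 stood at 24.0, 24.7 and 22.4 FPKM in the young hearts and 33.8, 35.3 and 31.5 FPKM in the old hearts. The FPKM of Srsf7 were lower in each of the 6 libraries, at 16.7, 16.5 and 18.1 FPKM in the young hearts and 24.2, 19.9 and 23.8 FPKM in the old hearts.

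Srsf4, a larger SR protein, was called at a smaller size, with 43.6 ± 3.03 CPM in young against 52.8 ± 2.49 CPM in old hearts (SD, n = 3 each), and its groups did not overlap (log2 fold change 0.27 ± 0.08 (SE), edgeR adjusted p = 0.0371). Leaving out young 1, young 2 or old 1 ended its call, and over the 6 such fits the values were 0.24 to 0.34 on the log2 scale and an edgeR adjusted p of 0.0314 to 0.152. The founding members of the family stood just short of the threshold. Srsf1, a general activator of splicing that is needed for heart maturation in mice, had 85.7, 87.3 and 82.7 CPM in the young hearts and 99.2, 93.0 and 103 CPM in the old hearts. Srsf2, an SR protein that stays in the nucleus, had 116, 119 and 123 CPM in the young hearts and 145, 136 and 137 CPM in the old hearts. For both genes all old hearts were above all young hearts, but neither was called: the log2 fold changes were 0.21 ± 0.08 (SE) with an adjusted p of 0.0813 and 0.22 ± 0.08 (SE) with an adjusted p of 0.0601 (edgeR). Srsf9 and Srsf11 also had groups that did not overlap, with log2 fold changes of 0.29 ± 0.11 (SE) and 0.18 ± 0.08 (SE) and edgeR adjusted p of 0.0911 and 0.130.

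Other SR genes did not separate the groups. Srsf5, by FPKM the most abundant SR gene in both groups, had 92.4, 87.6 and 83.7 CPM in the young hearts and 93.8, 79.8 and 103 CPM in the old hearts, and old 2 was the lowest of all 6 hearts. Its log2 fold change was 0.07 ± 0.10 (SE) with an adjusted p of 0.636 (edgeR). Srsf10, which turns from activator to repressor by losing phosphate in heat shock, had 45.2, 49.1 and 43.2 CPM in the young hearts and 57.0, 52.8 and 42.6 CPM in the old hearts. Old 3 was the lowest of the 6 and old 1 the highest, with a log2 fold change of 0.15 ± 0.11 (SE) with an adjusted p of 0.346 (edgeR), and without old 3 it was called (edgeR adjusted p = 0.0495). Srsf6 differed least, at 0.05 ± 0.07 (SE) with an adjusted p of 0.673 (edgeR). Srsf12, a paralog of Srsf10, had 9 counts in all and was not tested.

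**Figure D2:**
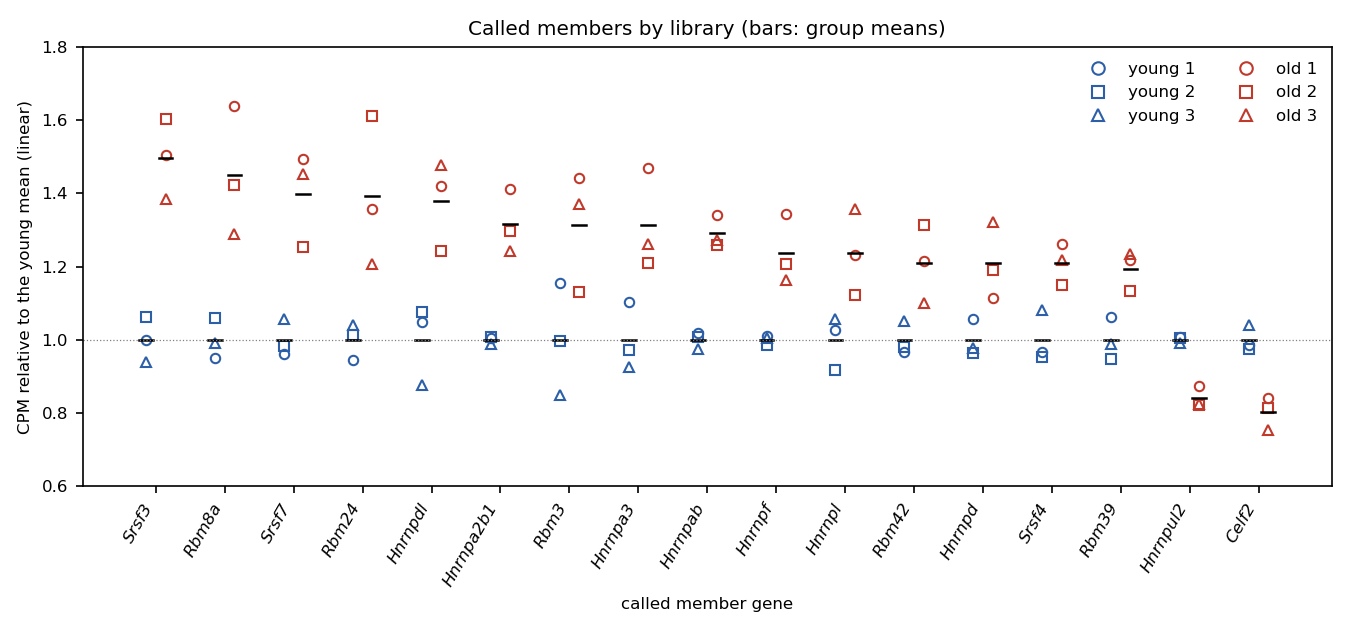
CPM of each of the 17 called members in each library, divided by the gene's young mean (linear axis); blue symbols are young and red old hearts, circle, square and triangle are libraries 1, 2 and 3, and bars are group means. The groups are apart for every gene but Rbm3, where old 2 lies below young 1.

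Among the hnRNP genes 7 of 20 tested were called higher (35%) and 1 lower (5%), beside 11.4% and 10.6% of all genes tested. The number higher was 3 without young 2 or without young 3, and 4 without young 1 or without old 1. The family had a median log2 fold change of 0.21 that stayed above 0 under every scaling (0.13 with the library size alone, 0.12 on FPKM + 1). In 14 of the 20 the groups did not overlap, 13 of them with the old hearts higher, beside 39.9% of all genes tested, or 5147 genes, 2530 of them with the old hearts higher. Hnrnpa2b1, which binds UAG-containing RNA and guides RNA transport and microRNA processing, had the highest mean FPKM of the family, at 68.0 ± 1.16 FPKM in young against 84.7 ± 5.54 FPKM in old hearts (SD, n = 3 each). It had 271, 272 and 267 CPM in the young hearts and 381, 350.2 and 335 CPM in the old hearts. The young hearts lay close together and below every old heart (log2 fold change 0.40 ± 0.08 (SE), edgeR adjusted p = 0.00564). Its promoter window is the one printed above with a heat shock element. Hnrnpa1, a close relative, stood above Hnrnpa2b1 in young 1 and young 2 (70.6 against 69.3 and 70.3 against 67.1 FPKM). Their order in young hearts is thus within the spread between libraries. Hnrnpa1 had 133, 137 and 114 CPM in the young hearts and 148, 129 and 136 CPM in the old hearts. Here the groups overlapped, and the log2 fold change was 0.11 ± 0.09 (SE) with an adjusted p of 0.431 (edgeR).

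Hnrnpdl and Hnrnpd are sister genes, and the product of the latter, AUF1, binds AU-rich elements and speeds the decay of mRNAs that carry them. Hnrnpdl had 63.6, 65.3 and 53.2 CPM in the young hearts and 86.1, 75.4 and 89.6 CPM in the old hearts. The groups were apart, and it was the largest rise of the family (log2 fold change 0.46 ± 0.10 (SE), edgeR adjusted p = 0.00741). It was called whichever library was left out. Hnrnpd had 44.4 ± 2.23 CPM in young against 53.7 ± 4.65 CPM in old hearts (SD, n = 3 each) and a smaller rise (log2 fold change 0.27 ± 0.09 (SE), edgeR adjusted p = 0.0447). Its call remained in 1 of the 6 fits that left out a library, the one without old 1, with 0.21 to 0.34 on the log2 scale and an edgeR adjusted p of 0.0408 to 0.130.

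Hnrnpab, of the same subfamily, had 141 ± 3.17 CPM in young against 181 ± 6.20 CPM in old hearts (SD, n = 3 each), and each old heart was above each young one (log2 fold change 0.37 ± 0.08 (SE), edgeR adjusted p = 0.00626). Hnrnpa3, a relative of Hnrnpa2b1, had 29.3, 25.8 and 24.6 CPM in the young hearts and 39.0, 32.1 and 33.5 CPM in the old hearts. The lowest old heart, old 2, was above the highest young one, young 1 (log2 fold change 0.39 ± 0.10 (SE), edgeR adjusted p = 0.0184). The call did not survive without young 2, young 3 or old 1, over a span of 0.31 to 0.47 on the log2 scale and an edgeR adjusted p of 0.0151 to 0.0878. Hnrnpf, which binds runs of G, and Hnrnpl, which binds CA repeats, had log2 fold changes of 0.31 ± 0.08 (SE) with an adjusted p of 0.0206 and 0.31 ± 0.10 (SE) with an adjusted p of 0.0376 (edgeR), with groups that did not overlap. Hnrnpf stayed called only without old 2 or without old 3, with 0.25 to 0.36 on the log2 scale and an edgeR adjusted p of 0.00990 to 0.0830. Hnrnpl stayed called only without old 2, with 0.24 to 0.38 on the log2 scale and an edgeR adjusted p of 0.0175 to 0.115.

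Among the uncalled relatives of these genes, Hnrnph2 and Hnrnpll stood just short of the threshold. Hnrnph1, Hnrnpa0 and Hnrnph3 were farther from it, with edgeR adjusted p of 0.101, 0.131 and 0.352. Hnrnph2, a G-run binder like Hnrnpf, had 49.6 ± 0.890 CPM in young against 57.6 ± 1.03 CPM in old hearts (SD, n = 3 each) and a log2 fold change of 0.22 ± 0.07 (SE) with an adjusted p of 0.0583 (edgeR). Hnrnpll, the paralog of Hnrnpl known for CD45 splicing in lymphocytes, was at 0.28 ± 0.10 (SE) with an adjusted p of 0.0583 (edgeR). For both, all old hearts lay above all young ones. The core hnRNP genes had smaller differences. Hnrnpc, whose tetramers measure the length of nascent RNA, had 126, 137 and 125 CPM in the young hearts and 147, 149 and 138 CPM in the old hearts. Hnrnpk, a binder of C-rich sequence, had 221, 222 and 205 CPM in the young hearts and 253, 234 and 233 CPM in the old hearts. In both genes the old hearts were above the young ones by a narrow margin, and neither was called: the log2 fold changes were 0.16 ± 0.08 (SE) with an adjusted p of 0.175 and 0.15 ± 0.08 (SE) with an adjusted p of 0.198 (edgeR).

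The U subfamily of scaffold attachment factors did not share this direction. Hnrnpu, a chromatin-bound regulator of cardiac splicing, had 183, 175 and 189.7 CPM in the young hearts and 186, 167 and 195 CPM in the old hearts, with a log2 fold change of -0.00 ± 0.09 (SE) with an adjusted p of 0.992 (edgeR) and interleaved groups. Its relative Hnrnpul2 had 119, 119 and 117 CPM in the young hearts and 103, 97.1 and 97.7 CPM in the old hearts. All old hearts were below all young ones, and it was the only hnRNP gene called lower (log2 fold change -0.25 ± 0.08 (SE), edgeR adjusted p = 0.0346). The call was near the threshold: it was lost in each of the 6 fits that left out a library, with -0.27 to -0.23 on the log2 scale and an edgeR adjusted p of 0.0639 to 0.127. Hnrnpul1 was not called, at -0.08 ± 0.08 (SE) with an adjusted p of 0.509 (edgeR).

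The RBM genes are a family by motif and name more than by function, and 4 of 33 tested were called higher and none lower. The higher share, 12.1%, was near the 11.4% of all genes tested, while 10.6% of all genes were called lower. Without young 1 the number higher was 1, and without young 2 or without young 3 it was 2. The RBM median log2 fold change was 0.04 and turned to -0.04 with the library size alone, to -0.01 with upper-quartile scaling and to -0.03 on FPKM + 1. These scalings lowered the median of all genes as well, from -0.01 to -0.09, -0.05 and -0.07, and the RBM median lay above it in each. Rbm8a encodes Y14, which with MAGOH forms the clamp of the exon junction complex left on spliced mRNA. It had 27.5, 30.7 and 28.7 CPM in the young hearts and 47.5, 41.2 and 37.4 CPM in the old hearts. The groups did not overlap, and it was the second largest rise of all members (log2 fold change 0.54 ± 0.10 (SE), edgeR adjusted p = 0.00322). The reference also lists a pseudogene copy, Rbm8a2, and how shared reads were placed is not given. Its partner Magoh had 29.0, 33.6 and 26.3 CPM in the young hearts and 38.3, 36.2 and 40.8 CPM in the old hearts. Old hearts were again all above young hearts (log2 fold change 0.38 ± 0.10 (SE), edgeR adjusted p = 0.0203), though without young 1, young 3 or old 1 it was not called.

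Rbm24, a muscle regulator that promotes inclusion of sarcomere exons, had 146, 157 and 161 CPM in the young hearts and 210.2, 249.7 and 187 CPM in the old hearts. All old hearts exceeded the young ones and old 2 was the highest (log2 fold change 0.48 ± 0.11 (SE), edgeR adjusted p = 0.00852). The adjusted p was 0.0505 without young 1 and between 0.00104 and 0.0325 with any other library left out. Rbm38, its paralog and a binder of p21 mRNA, had the highest level per length of all members, at 91.5 ± 4.73 FPKM in young against 110.3 ± 21.1 FPKM in old hearts (SD, n = 3 each). Its library values, chosen for print after they were seen, were 166, 189 and 183 CPM in the young hearts and 211, 284 and 193 CPM in the old hearts. The groups did not overlap, old 2 was far above the other old hearts, and the gene was not called (log2 fold change 0.35 ± 0.13 (SE), edgeR adjusted p = 0.0695). Among other fits, it was called without old 3 (adjusted p = 0.0124), with DESeq2 (0.0318) and with limma-voom and quality weights (0.0247). Without old 2 its log2 fold change was 0.18 (edgeR adjusted p = 0.212).

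Rbm20, the titin splicing repressor, had 193, 177 and 216 CPM in the young hearts and 144, 203 and 135 CPM in the old hearts. Old 1 and old 3 lay below every young heart, while old 2 lay between young 1 and young 3. The log2 fold change was -0.28 ± 0.14 (SE) with an adjusted p of 0.169 (edgeR), so Rbm20 was not called. Without old 2 it was -0.48 with an edgeR adjusted p of 0.00766, and with any other library left out the adjusted p was 0.152 or more. Old 2 was the highest old heart for Rbm20, Rbm24, Rbm38, Rbfox1, Rbfox2 and Mbnl2, and by a very narrow margin for Celf1. For Mbnl1 and Celf2 it was not.

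Rbm42, a binder of hnRNP K, and Rbm39, a U2AF-related splicing factor, had small rises of 0.27 ± 0.09 (SE) and 0.26 ± 0.08 (SE) on the log2 scale, with edgeR adjusted p of 0.0444 and 0.0444. Each remained called in 1 of the 6 fits that left out a library, Rbm42 without old 3 and Rbm39 without old 2, with 0.22 to 0.35 on the log2 scale and an edgeR adjusted p of 0.0138 to 0.167 for Rbm42 and 0.22 to 0.30 on the log2 scale and an edgeR adjusted p of 0.0345 to 0.123 for Rbm39. Rbm12 was just short of the threshold, at 0.33 ± 0.12 (SE) with an adjusted p of 0.0622 (edgeR). In Rbm5, a tumour-suppressor splicing factor, Rbm18 and Rbm28 all old hearts were below all young ones, but none was called: their log2 fold changes were -0.19 ± 0.08 (SE), -0.16 ± 0.08 (SE) and -0.20 ± 0.09 (SE) and their edgeR adjusted p 0.117, 0.187 and 0.143. Rbm34 had the lowest log2 fold change of all tested members, -0.51 ± 0.24 (SE) with an adjusted p of 0.142 (edgeR), on 30 to 66 counts per library, and old 3 lay among the young hearts. Without old 3 it was -0.83 and called (edgeR adjusted p = 0.0188), and it was also called with limma-voom and quality weights. The other 21 uncalled RBM genes, Rbm3-ps aside, had log2 fold changes between -0.25 and 0.18.

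Among the cold-inducible pair only 1 gene was called, beside 22% of all genes tested. Rbm3 had 63.5, 54.8 and 46.7 CPM in the young hearts and 79.2, 62.1 and 75.4 CPM in the old hearts. Old 2 lay just below young 1, so the groups overlapped, and the gene was nevertheless called higher (log2 fold change 0.39 ± 0.12 (SE), edgeR adjusted p = 0.0376). That call held without young 1 or without old 2 only, and the 6 fits that left out a library gave 0.29 to 0.51 on the log2 scale and an edgeR adjusted p of 0.0138 to 0.156. Cirbp had 50.2, 38.6 and 36.8 CPM in the young hearts and 47.9, 35.9 and 43.7 CPM in the old hearts. Its groups were interleaved and the log2 fold change was 0.02 ± 0.13 (SE) with an adjusted p of 0.932 (edgeR). In each group the hearts kept the same order for both genes. As a share of their summed FPKM, Cirbp took 61.9 ± 1.59% in young against 55.7 ± 0.633% in old hearts (SD, n = 3 each), with the groups apart (exact permutation p = 0.1, 0.267 after adjustment over 8 pairs of related genes).

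**Figure D3:**
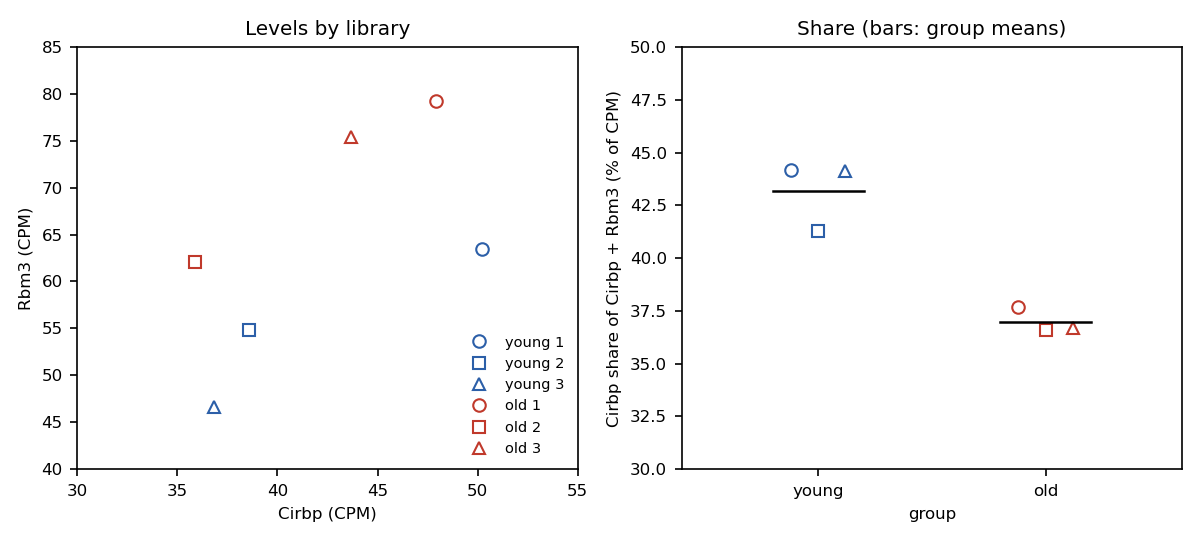
Left, Rbm3 against Cirbp in CPM, 1 symbol per library, young in blue and old in red; right, the share of Cirbp in the summed CPM of both genes (%), with bars at the group means. The share stands at 41.3% to 44.2% in the 3 young hearts and 36.6% to 37.7% in the 3 old hearts.

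Rbm3-ps, a pseudogene listed beside Rbm3, had 95 counts over the 6 libraries and a log2 fold change of 0.38 ± 0.35 (SE) with an adjusted p of 0.458 (edgeR), and reads shared with Rbm3 could be counted at either. Both cold-inducible proteins respond to temperature in the direction opposite to heat shock chaperones. In the same libraries 12 of 13 heat shock chaperone genes were called higher (92.3%), beside 11.4% of all genes tested. Their summed level was 4808 to 4979 CPM in young and 7711 to 10336 CPM in old hearts. The part of this in any member's result was not tested.

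In the CELF and MBNL families, whose balance sets exon choice in the developing heart, 1 of 5 tested genes was called. Over all genes tested 22% were called, so this count was near the background. Celf2 had 57.6, 56.9 and 60.7 CPM in the young hearts and 49.0, 47.4 and 44.0 CPM in the old hearts. Each old heart was below each young one (log2 fold change -0.32 ± 0.08 (SE), edgeR adjusted p = 0.0154). Without young 1 or without young 3 it was not called (edgeR adjusted p = 0.0553 and 0.0689), nor after removal of the trend of fold change with gene length, where the log2 fold change was -0.16 (edgeR adjusted p = 0.186). The length behind its FPKM, 63925 bases, was by far the longest of the tested members, the next being Rbfox2 at 22668 bases. Celf1 had 96.1, 94.6 and 103 CPM in the young hearts and 107, 107 and 91.1 CPM in the old hearts. Its groups overlapped, at 0.05 ± 0.09 (SE) with an adjusted p of 0.726 (edgeR).

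The Celf1 share of the summed FPKM of both genes was 92.2 ± 0.0966% in young against 93.9 ± 0.241% in old hearts (SD, n = 3 each), with the groups apart (exact permutation p = 0.1, adjusted 0.267). By CPM, which does not divide by length, the share was 62.7% and 68.4%. Mbnl1 had 125, 122 and 122 CPM in the young hearts and 132, 118 and 134 CPM in the old hearts. Mbnl2, the more abundant of the pair by FPKM, had 161, 162 and 161 CPM in the young hearts and 181, 187 and 150.3 CPM in the old hearts. For Mbnl2 old 1 and old 2 were above all young hearts and old 3 below them, and for Mbnl1 the lowest of all hearts was old 2. Neither was called, with log2 fold changes of 0.06 ± 0.08 (SE) with an adjusted p of 0.657 and 0.10 ± 0.09 (SE) with an adjusted p of 0.474 (edgeR). The Mbnl1 share of the pair was 32.4 ± 0.429% in young against 31.9 ± 3.85% in old hearts (SD, n = 3 each, exact permutation p = 0.7), so the old hearts spread more widely than the young. Mbnl3, a fetal paralog, stood at 1.11 CPM in young and 1.13 CPM in old hearts (80 counts in all) and was not called. Celf4 and Celf5, known mainly from brain, had 22 and 30 counts over the 6 libraries and were not tested.

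Neither of the 2 tested RBFOX genes was called, beside 22% of all genes tested. Rbfox1, which is enriched in muscle and neurons, had 34.7, 29.3 and 39.5 CPM in the young hearts and 36.7, 43.3 and 34.1 CPM in the old hearts. Rbfox2, the more widely expressed paralog, had 101, 104 and 118 CPM in the young hearts and 101, 114 and 103 CPM in the old hearts. The groups were interleaved in both, with log2 fold changes of 0.14 ± 0.12 (SE) with an adjusted p of 0.435 and -0.02 ± 0.09 (SE) with an adjusted p of 0.897 (edgeR). Rbfox2 took 55.1 ± 2.68% of the pair's summed FPKM in young against 52.3 ± 1.78% in old hearts (SD, n = 3 each, exact permutation p = 0.3). Rbfox3, a neuronal marker, had 3 counts in all libraries together.

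**Figure D4:**
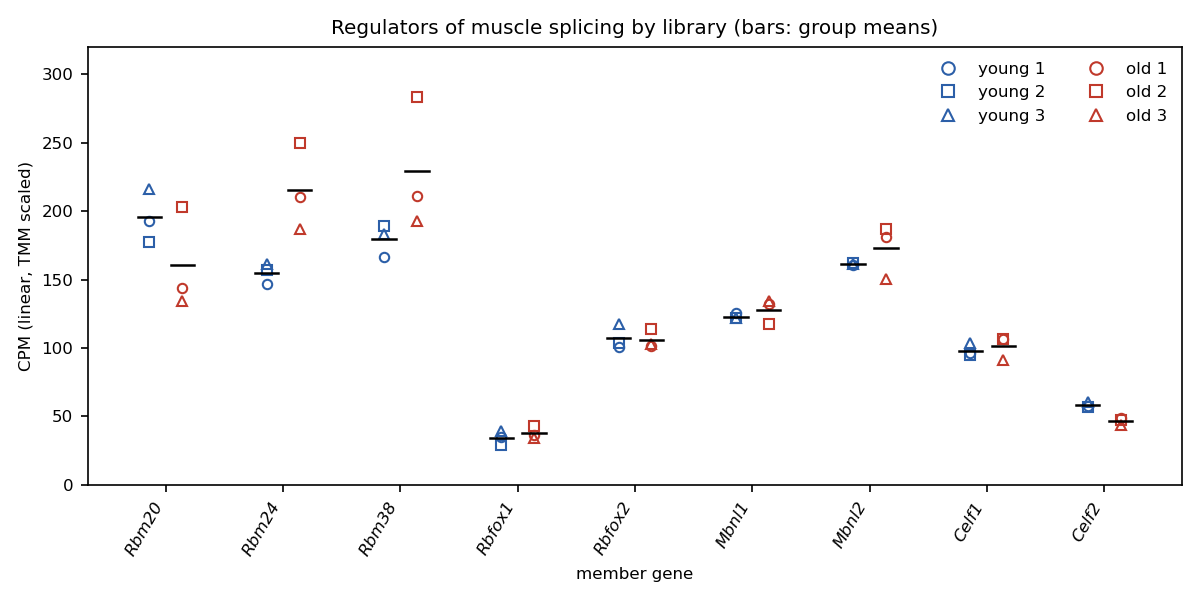
CPM (linear axis from 0) of 9 regulators of muscle splicing in each library, young in blue and old in red, with circle, square and triangle for libraries 1, 2 and 3 and bars at the group means. Rbm24 and Celf2 have groups apart in opposite directions and were called, and for Rbm20 the red square of old 2 stands among the young hearts.

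Of the 8 pairs of related genes, 3 had shares whose groups did not overlap, those of Celf1 with Celf2, Cirbp with Rbm3, and Rbm24 with Rbm38 (35.1 ± 0.752% Rbm24 in young against 37.2 ± 1.49% in old hearts, SD, n = 3 each, exact permutation p = 0.1). The Rbm24 shares were apart by a very narrow margin, with young 3 at 35.497% and old 2 at 35.503%. All 8 adjusted values were 0.267 or higher, since 3 against 3 libraries cannot give an unadjusted p below 0.1. The shares of Hnrnpl with Hnrnpll (77.1% and 77.3%), Srsf1 with Srsf9 (57.4% and 55.9%) and Rbm5 with Rbm10 (75.3% and 74.2%) overlapped between groups, with exact permutation p of 0.8, 0.4 and 0.4 (n = 3 each).

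Per length, the highest members in old hearts were Rbm38, Hnrnpa2b1, Hnrnpab, Hnrnpk, Hnrnpa1 and Rbm24, with mean FPKM of 110.3, 84.7, 69.3, 68.5, 68.4 and 64.9. The ranges of the last 4 overlapped, so their order is within the spread between libraries. In young hearts Hnrnpab, at 56.7 FPKM, stood below Hnrnpa1 and Hnrnpk, at 67.0 and 65.1 FPKM. The called-higher members had a median gene length of 3582 bases and a median young level of 59.3 CPM, beside 3952 bases and 38.5 CPM for uncalled members and 3622 bases and 22.6 CPM for all genes tested. At the low end 8 members had under 10 counts in all libraries together: Celf3, Celf6, Hnrnpa1l2-ps2, Rbfox3, Rbm11, Rbm44, Rbm46 and Srsf12. Rbm4 had 22 counts and was not tested. Near-identical copies could share reads, which touches Rbm4 with Rbm4b, Rbm12b1 with Rbm12b2, and Hnrnpa1 with Hnrnpa1l2-ps2. The strand setting of the count is unknown, so reads of a member and of a gene overlapping it on the other strand cannot be told apart.

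The machinery around these regulators was mixed in direction. The 6 lists of other splicing genes were chosen from textbook roles, with earlier results of these data known. In them 20 of 168 tested genes were called higher (11.9%) and 9 lower (5.36%). Over all genes tested these shares were 11.4% and 10.6%, so the higher share of the lists was near the background. The median log2 fold change of the lists was 0.06. The number higher ranged from 9 without young 3 to 21 without old 3, and the number lower from 3 without young 1 to 10 without old 3. Kinases and phosphatases of SR proteins had 1 of 12 higher and 1 lower (8.33% each). Dyrk1b, a dual-specificity kinase of muscle, had 23.0, 18.3 and 23.2 CPM in the young hearts and 31.5, 30.2 and 31.5 CPM in the old hearts (log2 fold change 0.53 ± 0.10 (SE), edgeR adjusted p = 0.00429), and Srpk3, the muscle SR protein kinase, had 30.4, 27.4 and 30.5 CPM in the young hearts and 22.5, 23.9 and 20.2 CPM in the old hearts (log2 fold change -0.41 ± 0.10 (SE), edgeR adjusted p = 0.0114). The groups were apart in opposite directions. The Srpk3 call was lost without young 1 or young 3.

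SR-related coactivators had 5 of 26 higher (19.2%) and 3 lower (11.5%), beside 11.4% and 10.6% of all genes tested. The counts of this list were 3 and 1 without young 1, and 2 and 1 without young 3. The lower count was also 1 without old 1 or old 2 and 2 without young 2. The Tra2a and Tra2b genes, for SR-like activators of purine-rich exons, rose with log2 fold changes of 0.70 ± 0.12 (SE) and 0.45 ± 0.09 (SE) (edgeR adjusted p = 0.00197 and 0.00413). Tra2a had 21.3, 21.7 and 27.2 CPM in the young hearts and 38.1, 33.2 and 42.7 CPM in the old hearts, and its old hearts were all above the young. Rsrc2 was next by p, at 0.35 ± 0.09 (SE) with an adjusted p of 0.0148 (edgeR), and lost its call without young 3. Srrm4, the microexon regulator of neurons, fell by 0.68 on the log2 scale (edgeR adjusted p = 0.00744), and Thrap3 and Bclaf1, a related pair of speckle proteins, were at -0.27 ± 0.08 (SE) and -0.28 ± 0.09 (SE). Neither was called without young 1, young 3, old 1 or old 2, and Bclaf1 not without young 2 either.

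Of the snRNP protein genes 4 of 25 were called higher (16%) and 1 lower (4%), beside 11.4% and 10.6% of all genes tested. The median of this list was 0.14, and 2 were called higher without young 1, young 3, old 1 or old 2. Snrpd1 and Snrpf, of the Sm ring, were at 0.66 ± 0.13 (SE) and 0.55 ± 0.10 (SE) (edgeR adjusted p = 0.00437 and 0.00371), and Snrpa of the U1 particle was at 0.31 ± 0.08 (SE), called in only 1 of 6 fits that left out a library, the one without old 3. Snrnp200, the U5 helicase, fell by 0.43 on the log2 scale (edgeR adjusted p = 0.00365). Assembly and catalysis factors had 2 of 51 higher and 2 lower (3.92% each), both under the shares of all genes. These counts ran from 1 to 4 and from 0 to 3 over the fits that left out a library. Sf3b1, the branch-point clamp, had 135, 126 and 143 CPM in the young hearts and 222, 201 and 194 CPM in the old hearts. The groups were apart (log2 fold change 0.61 ± 0.09 (SE), edgeR adjusted p = 0.000605). The smaller calls of this list were Sf3b6 at 0.32 ± 0.09 (SE), Ddx42 at -0.34 ± 0.08 (SE) and Aqr at -0.29 ± 0.09 (SE); Sf3b6 lost its call without young 1, young 3 or old 3, Ddx42 without young 1, and Aqr in all fits but the one without old 3. In the exon junction complex and nonsense-mediated decay list only Magoh was called, of 14 (7.14%, beside 22% of all genes tested).

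Other RNA-binding splicing regulators had 7 of 40 higher (17.5%) and 2 lower (5%), beside 11.4% and 10.6% of all genes tested. The number higher was 3 without young 1 or young 3 and 4 without old 1. Pcbp1, a poly(C)-binding protein, had 155, 157 and 152 CPM in the young hearts and 217, 229.9 and 214 CPM in the old hearts. The groups lay far apart (log2 fold change 0.51 ± 0.08 (SE), edgeR adjusted p = 0.000884). Elavl1, or HuR, a stabiliser of AU-rich mRNAs, rose by 0.49 ± 0.09 (SE) on the log2 scale and Fubp1 by 0.38 ± 0.09 (SE) (edgeR adjusted p = 0.00295 and 0.0117). Zfp36l1, which promotes decay of AU-rich mRNAs, fell by 0.60, and Sugp1, a partner of SF3B1, by 0.36 (edgeR adjusted p = 0.0120 and 0.0124). Fubp1 was not called without young 1 or young 3, Zfp36l1 without young 3 or old 1, and Sugp1 without young 1 or old 1.

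Transcripts known to be spliced by RBM20 had 3 of 17 higher and 3 lower (17.6% each), beside 11.4% and 10.6% of all genes tested. The median of this list was -0.01, and the lower calls numbered 1 without young 3, 2 without old 1 and 5 without old 2. Tpm1, Pdlim3 and Pdlim5 were higher, at 0.43 ± 0.08 (SE), 0.90 ± 0.16 (SE) and 0.41 ± 0.09 (SE), and Ttn was lower, at -0.50 ± 0.12 (SE) (log2 scale, edgeR adjusted p = 0.00257, 0.00219, 0.00902 and 0.0115). The Ttn call was lost without young 3 or old 1. These are gene totals and carry no information on which exons were used.

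**Figure D5:**
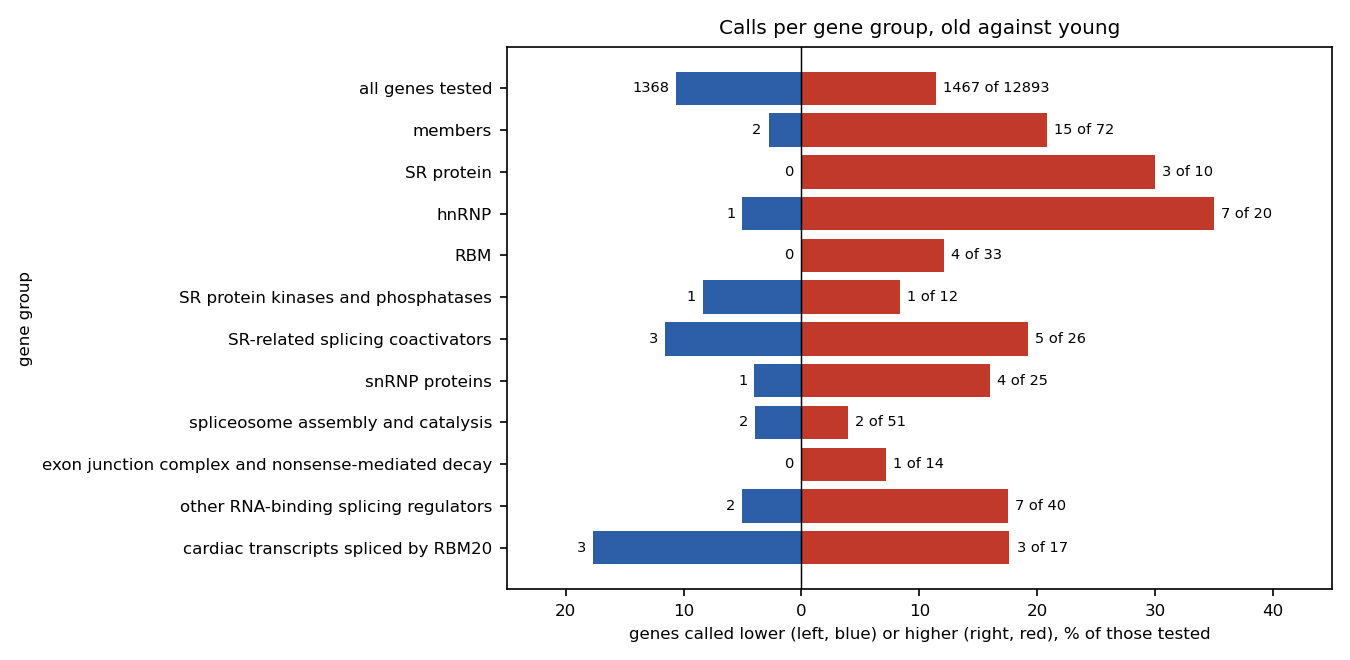
Share of tested genes called higher (red, right of 0) or lower (blue, left) in old hearts, in percent, for all genes tested, the members, the 3 largest member families and 7 lists of related genes; numbers beside the bars are gene counts. Members stand at 15 higher and 2 lower of 72, and all genes at 1467 higher and 1368 lower of 12893.

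Library totals ran from 11295280 to 12514005 counts, so 1 count was worth 0.0799 to 0.0885 CPM. The 10 most abundant genes took 9.97% to 10.2% of the counts in young and 11.1% to 11.3% in old hearts. The labelled tissue held its markers: the 10 heart muscle markers summed to 64951 to 68181 CPM in young and 73700 to 77557 CPM in old hearts, with 2 called higher and 1 lower. Endothelial markers summed to 1754 to 1935 CPM in young and 1385 to 1759 CPM in old hearts (1 of 7 higher, 2 lower). Fibroblast (1565 to 1623 and 1569 to 1941 CPM), macrophage (310.4 to 328 and 307 to 351 CPM) and smooth muscle markers (1175 to 1323 and 1244 to 1383 CPM) had 1, 2 and 3 of 7 genes higher and 1 lower each. Red blood cell markers varied most, from 2163 to 16086 CPM in young and 3195 to 6803 CPM in old hearts, with 1 of 7 called lower, none of the 7 log2 fold changes above 0 and a median of -1.11. Lymphocyte, epicardial, and neuron and glia markers stayed under 51 CPM in sum with 1 gene higher in each, skeletal muscle markers had none called, and adipocyte markers summed to at most 1.23 CPM. Beside these counts of called markers, 11.4% of all genes tested were called higher and 10.6% lower. No marker of these lists was at 0 in all libraries, and their part in the member results was not tested.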

How the data were processed

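Gene counts and FPKM values of 6 mouse heart libraries were used as the authors deposited them, and all 12 single-sample tables equal the columns of the joint tables. Per the labels' protocols, RNA was taken with mirVana and libraries made with a TruSeq Stranded mRNA kit. The submitters' processing notes name Trimmomatic, HISAT2, Bowtie2, HTSeq, Cufflinks, StringTie, DESeq and GRCm39; for these tools no version or role, and for the counting no strand setting, is given in the sources used here.

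The counts were tested with edgeR 4.0.16 (R 4.3.3): filterByExpr, TMM scaling and quasi-likelihood F-tests over 12893 genes, adjusted by Benjamini-Hochberg, with 0.05 as threshold. CPM are TMM-scaled. FPKM were used for levels between genes and shares of pairs. Shares were compared by exact 2-sided permutation tests. The scripts were tested on simulated data.

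Members and lists were chosen with earlier results of these data known. Every member may be named; library values are given for the 8 largest rises and falls among called members (mean log2 CPM from 1 up), and for 21 regulators fixed by role; other lists give up to 3 called genes per direction by smallest p. Alternatives were other scalings and filters, each library left out, the replicate number as a block, DESeq2 1.42.0, limma-voom with or without quality weights (limma 3.58.1), dropping the 10 genes with the most counts, log2 FPKM with a pseudocount of 1 or 0.1, a gene-length correction and thresholds of 0.01 and 0.1. Some called genes of the list of RBM20-spliced transcripts are not reported here.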

Additional observations from a re-analysis of the deposited data

How the results depend on the processing

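Of the 17 called members, 6 were called whichever library was left out, 5 in all 20 alternative fits, and none changed sign. Of the 55 uncalled members, 15 were called in some fit and 17 changed sign. Leaving out 1 library gave 8 to 15 members higher and 0 to 2 lower, 850 to 1597 genes higher and 682 to 1444 lower over all genes, and, in the 6 splicing lists, 9 to 21 higher and 3 to 10 lower. With all libraries the members gave 15 and 2, all genes 1467 and 1368, and the lists 20 and 9. Members higher numbered 9 with upper-quartile scaling, 7 with the library size alone, 7 on FPKM with either pseudocount, 6 on unfiltered FPKM and 7 at a threshold of 0.01. Members lower numbered 5 with the library size alone, 1 with no filter, 1 with unfiltered FPKM, 0 with the length trend removed and 0 at 0.01. All genes higher numbered 907, 897 and 810 on FPKM (pseudocount 1, 0.1, and 1 unfiltered) and 724 at 0.01, and lower 2122 with the library size alone and 531 at 0.01. In the 6 lists, 12 were higher with the library size alone, 12, 11 and 8 on those FPKM fits and 8 at 0.01, and 16 were lower with the library size alone, 15 and 16 on filtered FPKM and 2 at 0.01. On TMM-scaled CPM the members' share rose by 0.0538 percentage points in place of 0.0268, and the Celf1 share by 5.71 in place of 1.63. These last shifts follow from the units. TMM factors were 1.01 to 1.04 in young and 0.955 to 0.988 in old libraries, and CPM, unlike FPKM, does not divide by length. The cause of the other shifts was not tested. The median log2 fold change of all genes was -0.09 with the library size alone, from -0.01.

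With the replicate number as a block, 13 members were higher and 1 lower, and 1417 and 1317 of all genes. Rbm38 was called under the block (edgeR adjusted p = 0.0462). The deviations of same-numbered libraries had correlations of 0.0782, 0.0782 and 0.00675, beside -0.141 to 0.0644 for libraries of different numbers. All were small, and the numbers were not taken as pairs.

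Depth limited the test most for Mbnl3, Rbm47 and Rbm3-ps, with 80, 81 and 95 counts over the 6 libraries.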
